A study of Rattus norvegicus with 9 samples.

Results

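Mitosis and spindle genes were followed in primary rat osteoblasts exposed to thrombin with or without a MEK inhibitor. The group held 48 genes, picked by name for their function in cell division from the 19085 genes of the expression table, and all 48 had enough counts to be among the 13256 genes tested. No measured value entered the rule, although the genes were chosen with earlier results of these data known. The cells came from the calvaria of male Sprague-Dawley rats 24 hours old, and every group was kept in osteogenic induction medium for 7 days. Control cells received that medium alone, Thrombin cells received thrombin at 20 U/mL in it, and PD03 cells received the same thrombin together with PD0325901, an inhibitor of the kinase MEK, at 0.1 μM. Each group had 3 libraries of messenger RNA. There was no group with PD0325901 alone, so the PD03 group against control differs in both agents. A protocol in the labels gives the PD0325901 concentration in mM rather than μM, and their tissue field reads knee although their growth protocol describes calvarial cells. The samples were described as independent, and no source used here says from which litters or cultures they came, so p-values measure the spread between these libraries, which may be partly technical.

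Mitosis is driven by Cdk1 bound to a B-type cyclin. The Polo-like and Aurora kinases build the spindle, kinetochores attach chromosomes to its microtubules, and the spindle checkpoint holds back the anaphase-promoting complex until every chromosome is attached. Most of these genes are transcribed in late S phase, G2 and mitosis only, so their messenger RNA is scarce in resting cells and common in cycling ones. MEK and ERK pass growth factor signals to the cell cycle, and osteoprogenitors divide before they lay down bone matrix. In bulk RNA, fewer dividing cells and less RNA per dividing cell cannot be told apart.

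Total counts lay between 15447832 and 19841468 per library. The 48 genes together took 0.328% to 0.342% of the counts in control, 0.355% to 0.367% in Thrombin and 0.221% to 0.236% in PD03. Osteoblast markers of matrix were abundant, with Col1a1 at a mean of 47443 CPM (counts scaled to the size of each library, here with the TMM method) in control, 42854 in Thrombin and 72132 in PD03. Markers of mature osteoblasts were nearly absent, as Bglap had 1 to 5 counts and Ibsp 0 or 1 count in each library. Alpl, whose enzyme the paper calls an early marker, averaged 1.67 CPM in control, 0.345 in Thrombin and 3.11 in PD03. Runx2, the transcription factor of the lineage, and Spp1 (osteopontin) ran in the order of the mitosis genes. Runx2 averaged 42.8, 51.1 and 32.1 CPM and Spp1 63.7, 185 and 53.1, and both fell in PD03 against thrombin (-0.67 and -1.80). They were the only 2 of 7 tested osteoblast markers that fell there, while 4 rose, with a median of 0.69 over the 7. Of all tested genes 6.31% fell and 9.61% rose. The paper's qPCR and blots gave Runx2 the other way, lower with thrombin and restored by PD03. Of 7 myeloid markers the summed level was 20.7 to 23.6 CPM in control, 29.1 to 32.7 in Thrombin and 17.5 to 19.2 in PD03, an order that matches that of the mitosis genes. Most of that sum was Cd14, while Ptprc had 0 to 6 counts, Adgre1 0 to 8, Lyz2 0 to 11, Itgam 2 to 9 and Cd68 6 to 14. Csf1r ran in another order, with means of 0.440, 0.746 and 1.24 CPM, and rose in PD03 against control (1.47, adjusted p = 0.0045, edgeR). Among nerve and glia markers, Tubb3 averaged 41.7, 58.1 and 95.9 CPM in the same order of groups, while Sox10 had 0 to 13 counts in each library. Cartilage markers summed to 90.5 to 101, 66.3 to 71.8 and 77.7 to 85.0 CPM, most of it Col2a1, which fell in PD03 against control (-0.58), while the other 3 of 4 rose there (Sox9 1.08, Acan 1.02 and Col9a1 0.87). Summed levels were lower still elsewhere, with endothelial markers at 7.89 to 8.90, 7.29 to 9.75 and 12.0 to 14.0 CPM (Pecam1 at 1 to 8 counts), and skeletal muscle, erythroid and epithelial markers at no more than 1.62, 0.389 and 0.324 CPM. Of the endothelial markers, Kdr rose in PD03 against thrombin (1.42) and against control (1.72). Tek rose against thrombin (0.62), and Vwf was called in neither comparison. The part of any of these cell type markers in the results below was not tested.

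The first PD03 library stood somewhat apart for these genes. Its members lay at a median of -0.11 on the log2 scale from the mean of the other PD03 libraries, 34 of 48 of them under it, and it was the lowest PD03 library for 29. This deviation ran with gene length (Spearman -0.44 over the 48 genes and -0.18 over all tested genes), although the same measure in the other libraries ranged from -0.23 to 0.52 over the 48 genes. Results for PD03 are therefore also given without that library.

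Promoters of genes that peak in G2 and mitosis are known for a sequence called the cell cycle genes homology region (CHR), which the MuvB complex binds, and for CCAAT boxes, which NF-Y binds. Genes of S phase more often carry sites for E2F factors. Of the 48 genes, 41 had a promoter in the RefSeq table for the GRCr8 assembly, from 250 bases before to 50 after the annotated start. No entry was found by symbol for Ccna2, Aurkb, Pbk, Incenp, Ube2c, Tpx2 and Foxm1. The CHR was searched as TTTGAA or TTCGAA on both strands, and 31 of 41 promoters held it (75.6%), against 19.7% of 33465 promoters of the same length. CCAAT stood on either strand in 29 (70.7%), against 37.5% of all, and both sequences together in 24 (58.5%), against 7.95% of all. E2F sites, searched as TTCCCGC or TTGGCGC or TTCGCGC or TTGCCGC, were in 10 (24.4%), against 9.52% of all. In a list of DNA replication genes with 44 promoters the order of these 2 was the other way round, with E2F sites in 70.5% and the CHR in 20.5%. CCAAT was common there too, in 59.1%. In 114 promoters of further mitosis genes the CHR stood in 52.6%, CCAAT in 60.5%, both together in 34.2% and E2F sites in 21.1%.

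The 120 bases just before the start are shown for 6 genes that hold both the CHR and CCAAT and for Aurka, which held none of the searched sequences in its whole window and fell most among the called genes in PD03 against thrombin. They cover the mitotic kinase and cyclin (Cdk1, Ccnb2), the activator of the anaphase-promoting complex (Cdc20), a spindle protein (Prc1) and chromosome proteins (Top2a, Mki67). Capitals mark the searched sequences on either strand. In Mki67 a CHR and a CCAAT box on the other strand share a base. The stretches lie in GRCr8 at Cdk1 chr20:19265173-19265292 (+), Ccnb2 chr8:79981659-79981778 (-), Cdc20 chr5:137255800-137255919 (-), Prc1 chr1:143659361-143659480 (+), Top2a chr10:84473094-84473213 (-), Mki67 chr1:199952594-199952713 (-) and Aurka chr3:181560770-181560889 (-), each written 5′ to 3′ on the strand of its gene. A match is a description of letters and was not tested for binding.
Cdk1: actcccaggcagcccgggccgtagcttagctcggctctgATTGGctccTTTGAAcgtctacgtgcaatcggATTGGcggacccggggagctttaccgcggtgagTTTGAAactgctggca
Ccnb2: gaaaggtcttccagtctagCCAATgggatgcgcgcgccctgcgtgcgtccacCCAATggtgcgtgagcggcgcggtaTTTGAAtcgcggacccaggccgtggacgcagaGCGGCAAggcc
Cdc20: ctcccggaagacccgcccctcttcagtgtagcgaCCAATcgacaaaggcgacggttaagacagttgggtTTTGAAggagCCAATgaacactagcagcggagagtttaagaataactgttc
Prc1: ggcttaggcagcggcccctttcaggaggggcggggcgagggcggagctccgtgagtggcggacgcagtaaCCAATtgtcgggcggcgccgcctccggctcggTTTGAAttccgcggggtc
Top2a: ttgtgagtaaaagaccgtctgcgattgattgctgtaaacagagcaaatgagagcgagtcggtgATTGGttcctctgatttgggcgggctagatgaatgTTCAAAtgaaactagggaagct
Mki67: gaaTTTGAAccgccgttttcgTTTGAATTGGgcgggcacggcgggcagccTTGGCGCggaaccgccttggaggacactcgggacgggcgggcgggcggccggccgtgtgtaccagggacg
Aurka: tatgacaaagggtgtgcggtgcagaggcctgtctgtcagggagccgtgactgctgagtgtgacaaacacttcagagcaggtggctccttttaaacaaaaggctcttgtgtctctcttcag

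**Figure D1:**
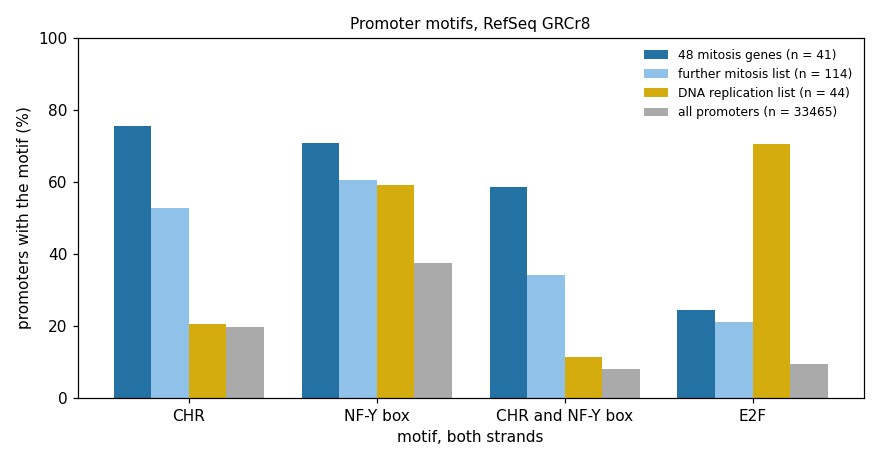
Share of promoters (percent, vertical axis) that hold each searched sequence on either strand, for 41 of the mitosis genes, 114 further mitosis genes, 44 DNA replication genes and all 33465 promoters of the RefSeq table. The CHR and the pair of CHR with NF-Y box (CCAAT) are more frequent in the mitosis genes (75.6% and 58.5%) than in all promoters (19.7% and 7.95%). The further mitosis genes lie between (52.6% and 34.2%), and E2F sites are most frequent in the replication genes (70.5%).

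Levels between genes were compared as FPKM, which divides counts by gene length. Over all 9 libraries Cdk1 had the highest mean, followed by Cdc20, Ube2c and Plk1. Cdk1 averaged 72.3 FPKM in control, 82.9 in Thrombin and 56.5 in PD03, and Cdc20 averaged 70.9, 71.0 and 46.4. The lowest levels apart from Foxm1 were those of the centromeric histone Cenpa and the spindle kinesin Kif15, at 6.35 and 6.43 FPKM in control. The Cenpa value rests on a gene length of 5399 bases, and by CPM Cenpa stood above Kif15 in control (33.3 against 29.6). Foxm1, a transcription factor known to activate genes of G2 and mitosis, stood far under the rest, with means of 0.172, 0.187 and 0.0988 FPKM and only 6 to 19 counts per library. Every other member had at least 248 counts in every library.

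**Figure D2:**
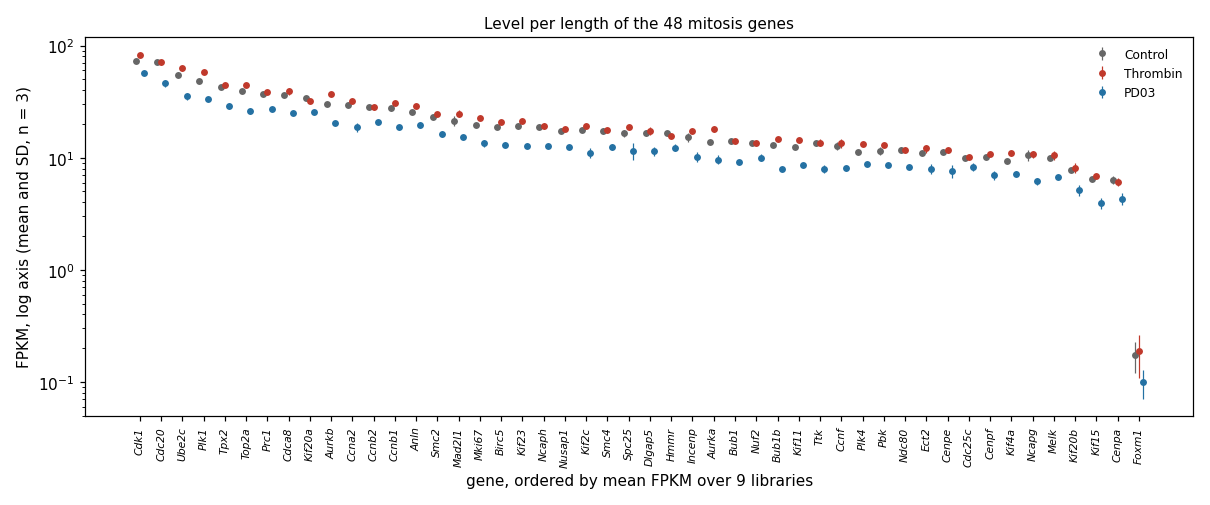
Mean level per length of the 48 genes (FPKM, log axis, points with SD, n = 3 libraries) in control, Thrombin and PD03, ordered by the mean over all libraries. PD03 points lie under the control and Thrombin points throughout, and Foxm1 stands alone near 0.1 to 0.2 FPKM.

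These genes were lower as a body with PD03 than with thrombin alone, and none passed the full threshold between thrombin and control. A gene was called when its adjusted p from edgeR's quasi-likelihood test was under 0.05 and its log2 fold change exceeded 0.58 in size. The words rose and fell are used for called genes, and genes that passed the adjusted p alone are said so. In PD03 against thrombin 20 of 48 genes fell and none rose, where 6.31% of all tested genes fell and 9.61% rose. The adjusted p alone was passed by 46, all lower (24.5% of all tested genes were lower by this rule), and in 47 every PD03 library lay under every Thrombin library and in none above it (27.1% and 28.4% of all). The median log2 fold change was -0.54 (-31.1%) with a range of -0.84 to -0.19, against a median of 0.01 over all tested genes. Without the first PD03 library the median was -0.51 and 18 genes fell.

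In thrombin against control no gene was called in either direction by edgeR, where 2.62% of all tested genes rose and 5.44% fell. On the adjusted p alone, 17 genes were higher and none lower (14.1% and 14.6% of all tested genes). The log2 fold change was above 0 for 44 of 48, with a median of 0.11 (8.15%) and a range of -0.06 to 0.41. Every Thrombin library lay above every control library for 24 genes (20.1% of all) and under it for 1, the kinesin Kif20a (20.2% of all). DESeq2 and limma voom also called none, and they found 16 and 18 genes higher on the adjusted p alone.

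In PD03 against control 4 genes fell (Bub1b, Ttk, Kif15 and Ncapg) and none rose, against 4.07% and 4.90% of all tested genes. The adjusted p alone was passed by 46, all lower (20.2% of all), the exceptions being Cdc25c and Foxm1. In 47 genes every PD03 library lay under every control library (24.0% of all). The median was -0.43 (-25.9%), and -0.39 without the first PD03 library. Without it Bub1b and Ncapg were still called, Ttk and Kif15 were not, and 1 other gene was added. PD03 shares its thrombin dose with the Thrombin group, and each group is used in 2 comparisons, so the 3 sets of values are not independent. Side by side, 17 genes passed the adjusted p alone as higher with thrombin and as lower with PD03 than in control (4.03% of all tested genes), and 29 passed it as lower in PD03 against control but did not pass in thrombin against control (12.3% of all). For 24 genes the libraries ran without overlap from Thrombin through control to PD03 (6.18% of all).

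The summed level of the 48 genes gave the same order. It was 3230 ± 44.7 CPM in control (SD, n = 3), 3540 ± 52.8 in Thrombin and 2419 ± 86.5 in PD03. The PD03 mean differed by -31.7% from that of Thrombin and by -25.1% from that of control, while the Thrombin mean was 9.60% above control. Scaling changed the count of called genes and not their direction, as with library totals in place of TMM, 35 genes fell in PD03 against thrombin and 15 in PD03 against control. Under library totals the median of all tested genes itself lay at -0.09 and -0.12 in these comparisons, and the share of called genes that rose was 46.5% in place of 60.4% and 34.1% in place of 54.6%.

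**Figure D3:**
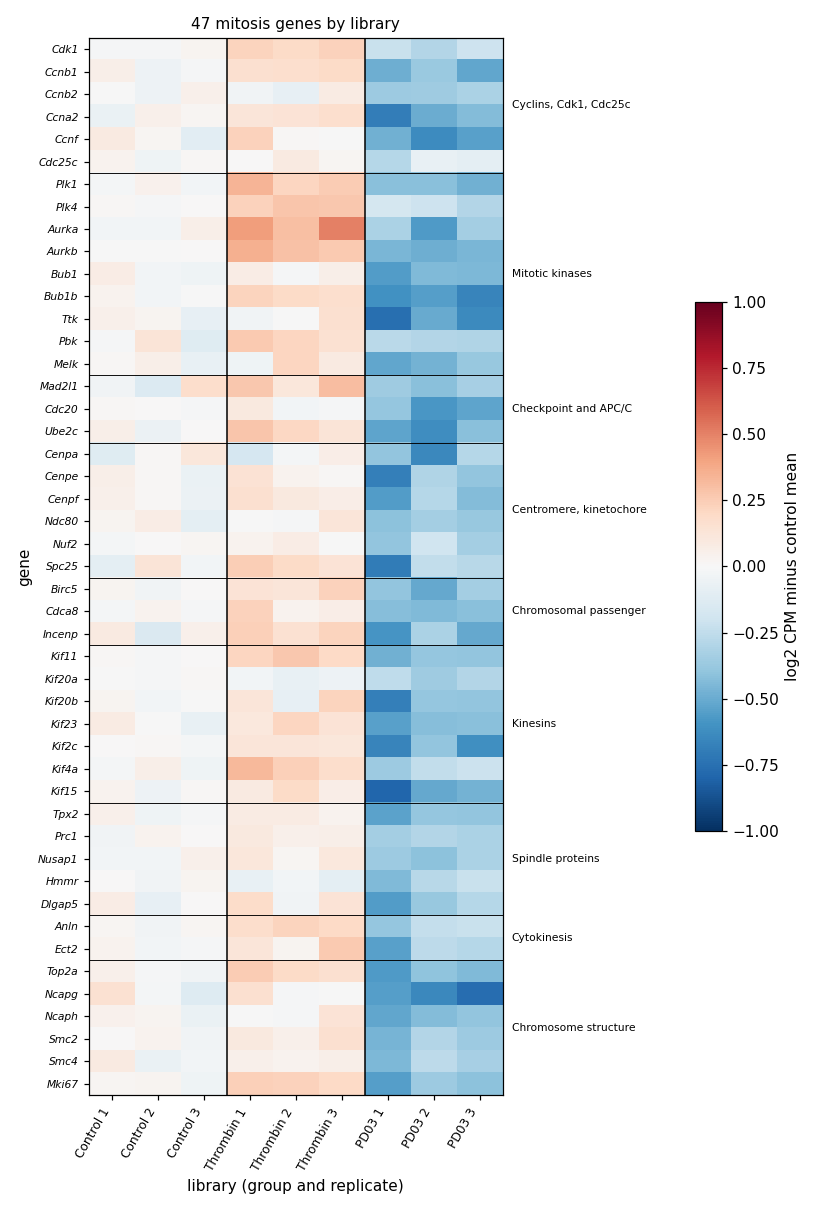
Log2 CPM of 47 mitosis genes (rows, grouped by role) in each of the 9 libraries (columns) minus the mean of the control libraries, on a colour scale from -1 (blue) to 1 (red); Foxm1 is left out for its low counts. All PD03 columns are blue, and the Thrombin columns are palest for centromere and spindle genes.

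Among the genes that time entry into mitosis, 3 of 6 fell in PD03 against thrombin. Cdk1 (ENSRNOG00000000632), the mitotic kinase itself, measured 94.1, 94.1 and 97.1 CPM in control, 111, 108 and 112 in Thrombin and 81.5, 77.8 and 82.2 in PD03. The groups did not overlap, with Thrombin highest and PD03 lowest. Its log2 fold change in PD03 against thrombin was -0.45 ± 0.05 (SE, adjusted p = 5.6e-11, edgeR), short of the fold threshold, and that in thrombin against control was 0.21 ± 0.05 (adjusted p = 3.2e-04). Ccnb1 (ENSRNOG00000058539), the main cyclin partner of Cdk1 in mitosis, measured 92.2, 85.3 and 87.7 CPM in control, 98.9, 99.3 and 101 in Thrombin and 62.9, 68.3 and 61.7 in PD03. It fell by 0.63 on the log2 scale in PD03 against thrombin (SE 0.05, adjusted p = 6.0e-14). Its relative Ccnb2 behaved differently in size, with control at 51.2 to 55.0 CPM, Thrombin at 50.1 to 56.2 and PD03 at 41.2 to 42.6. Control and Thrombin overlapped entirely for Ccnb2 (log2 fold change -0.01, adjusted p = 0.93, edgeR), and PD03 lay -0.33 under thrombin.

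Ccna2, the cyclin of S phase and G2, fell by 0.68 in PD03 against thrombin, from a mean of 92.6 ± 1.64 CPM to 57.7 ± 5.23 (SD, n = 3). Ccnf, an F-box protein that marks proteins for destruction, fell by 0.63, was not called without the first Thrombin library, and did not pass in thrombin against control (0.08, adjusted p = 0.43, edgeR). Cdc25c, the phosphatase that switches Cdk1 on, differed least of all 48 genes: its PD03 libraries at 16.2, 18.8 and 18.5 CPM lay just under the Thrombin libraries at 19.8, 21.1 and 20.1, and the difference of -0.19 ± 0.09 did not pass (adjusted p = 0.065).

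Of the mitotic kinases, 5 of 9 were called lower in PD03 against thrombin, with a median of -0.68. Aurka (ENSRNOG00000004479), the centrosomal Aurora kinase that matures spindle poles, measured 35.2, 35.4 and 37.4 CPM in control, 48.2, 44.4 and 51.1 in Thrombin and 28.8, 24.2 and 28.3 in PD03. No library of any group overlapped with another group. It had the largest value of the 48 genes in thrombin against control (0.41 ± 0.07, adjusted p = 6.4e-06, edgeR) and the largest fall among called genes in PD03 against thrombin (-0.82 ± 0.07, adjusted p = 5.3e-13). Aurkb (ENSRNOG00000005659), the catalytic part of the chromosomal passenger complex, measured 56.4 to 56.7 CPM in control, 67.8 to 72.1 in Thrombin and 40.3 to 41.2 in PD03. Its values were 0.30 (adjusted p = 1.9e-05) and -0.77 (adjusted p = 2.2e-15). Plk1 (ENSRNOG00000018815), which acts at centrosomes and kinetochores through mitosis, measured 102 to 107, 121 to 131 and 74.3 to 77.5 CPM. It was higher with thrombin on the adjusted p alone (0.27) and fell by 0.71 in PD03 against thrombin (SE 0.05, adjusted p = 1.7e-16).

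The checkpoint kinases Bub1b and Ttk were among the 4 genes that also fell against control. Bub1b (ENSRNOG00000007906), a part of the complex that inhibits Cdc20, measured 56.4, 54.0 and 55.0 CPM in control, 64.5, 63.0 and 61.8 in Thrombin and 36.1, 37.6 and 34.9 in PD03. It fell by 0.80 against thrombin and by 0.61 against control (adjusted p = 2.6e-15 and 2.3e-11, edgeR). Ttk (ENSRNOG00000029055), the kinase that starts the checkpoint at kinetochores, measured 45.3, 44.5 and 41.3 CPM in control, 42.6, 43.6 and 48.8 in Thrombin and 25.9, 30.8 and 28.0 in PD03. Control and Thrombin overlapped, while PD03 lay under both, with falls of -0.68 and -0.64. Ttk was not called against control without the first PD03 library. Bub1 lay 0.04 from control with thrombin (adjusted p = 0.69) and -0.52 from thrombin with PD03, and Plk4, the kinase of centriole duplication, 0.26 and -0.49. Pbk and Melk, a pair of kinases abundant in dividing cells, were -0.50 and -0.55 in PD03 against thrombin, and neither passed in thrombin against control (adjusted p = 0.057 and 0.42, edgeR).

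Of the 3 genes around the anaphase-promoting complex, 2 fell. Ube2c (ENSRNOG00000015131), which hands ubiquitin to that complex, measured 55.0, 50.4 and 52.7 CPM in control, 63.7, 60.9 and 57.8 in Thrombin and 36.4, 34.3 and 39.5 in PD03. It fell by 0.73 in PD03 against thrombin (SE 0.06, adjusted p = 4.0e-13, edgeR) with no overlap among the groups. Mad2l1, the checkpoint protein that captures Cdc20, fell by 0.60, though without the third Thrombin library it was not called. Cdc20 measured 132 to 134 CPM in control, 130 to 142 in Thrombin and 88.6 to 102 in PD03. Its thrombin value was 0.02 (adjusted p = 0.83) and its PD03 values were -0.51 against thrombin and -0.49 against control.

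The roles were not tested against each other. Among centromere and kinetochore genes, none of 6 passed the adjusted p in thrombin against control, and 1 of 6 fell in PD03 against thrombin. That gene was Spc25, a subunit of the NDC80 complex that grips microtubules, at 23.5 to 25.3 CPM in Thrombin and 13.1, 18.0 and 17.6 in PD03 (-0.60 ± 0.10, adjusted p = 1.4e-06, edgeR). It was not called without the first PD03 library or without the first Thrombin library. Its partners Ndc80 and Nuf2 lay at -0.41 and -0.35. Cenpa, the histone H3 variant that marks centromeres, measured 30.5, 33.4 and 36.0 CPM in control, 29.5, 32.8 and 34.9 in Thrombin and 25.3, 21.2 and 27.2 in PD03. Control and Thrombin libraries of Cenpa overlapped, and PD03 lay under both (-0.40 against thrombin). Cenpe, the kinetochore motor, and Cenpf, a large kinetochore protein, lay at -0.52 and -0.53 against thrombin. Their first PD03 libraries were the lowest, at 52.1 and 67.1 CPM against 63.7 to 67.8 and 73.1 to 81.3 in the others.

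The chromosomal passenger complex, which corrects wrong attachments, was represented by 3 more genes. Incenp, its scaffold, measured 77.0, 65.5 and 75.2 CPM in control, 85.3, 80.5 and 84.6 in Thrombin, and a mean of 52.3 ± 5.24 in PD03 (SD, n = 3). PD03 did not overlap with either group, and Incenp fell by 0.68 against thrombin (adjusted p = 2.3e-12, edgeR). Birc5 (survivin) was at -0.58 ± 0.07, just short of the fold threshold, and Cdca8 (borealin) at -0.54. Aurkb fell as well (-0.77), so all 4 subunits were lower past the adjusted p, and Incenp and Aurkb passed the fold threshold too.

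Of 7 kinesins, the motors that slide, carry or shorten spindle microtubules, 5 fell in PD03 against thrombin. Kif11, which pushes the spindle poles apart, measured 58.0 to 58.9 CPM in control, 67.1 to 70.5 in Thrombin and 41.9 to 44.8 in PD03, falling by 0.65 (SE 0.06, adjusted p = 3.7e-13, edgeR). Kif15 (ENSRNOG00000060356), which shares that task, measured 30.3, 28.7 and 29.9 CPM in control, 31.5, 33.8 and 31.0 in Thrombin and 17.0, 20.7 and 21.3 in PD03. It fell by 0.71 against thrombin and by 0.60 against control, where the call was lost without the first PD03 library. Kif2c, which takes microtubules apart at kinetochores, fell by 0.68 and Kif23, a motor of the central spindle, by 0.62. Kif20b, at -0.58 ± 0.08, stood just past the fold threshold. Its call was lost without the first or the third Thrombin library or the first PD03 library, and that of Kif23 without the first PD03 library.

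Kif4a and Kif20a were the kinesins that were not called. Kif4a, a motor on chromosome arms, was 0.25 above control with thrombin (adjusted p = 0.0024, edgeR) and at -0.52 in PD03 against thrombin. Kif20a, which brings the passenger complex to the central spindle, measured 97.7, 97.5 and 99.2 CPM in control, 96.4, 93.2 and 94.7 in Thrombin and 82.3, 76.7 and 79.9 in PD03. It was the member whose Thrombin libraries all lay under control, by a log2 fold change of -0.05 that did not pass (adjusted p = 0.48), and its PD03 value of -0.25 was among the smallest.

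None of 5 spindle proteins fell past the fold threshold, yet all 5 passed the adjusted p alone in PD03 against thrombin. Tpx2, which activates Aurora A and starts microtubules near chromosomes, measured 114 to 122 CPM in control, 120 to 124 in Thrombin and 80.8 to 89.9 in PD03 (-0.51 ± 0.05, adjusted p = 4.7e-12, edgeR). Prc1, the bundler of the central spindle, measured 109 to 114, 115 to 119 and 87.9 to 91.1 CPM, with a PD03 value of -0.38. Nusap1 and Dlgap5, which stabilise spindle microtubules, lay at -0.44 and -0.50. Hmmr, a centrosome and spindle protein that is also known as a hyaluronan receptor, had the lowest thrombin value of the 48 genes (-0.06, adjusted p = 0.48) and a PD03 value of -0.25. The cytokinesis genes Anln (anillin, of the contractile ring) and Ect2 (which activates RhoA there) were at -0.48 and -0.50. Anln was higher with thrombin on the adjusted p alone (0.20, adjusted p = 6.3e-04), and Ect2 was not (0.14, adjusted p = 0.11, edgeR).

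Among 6 genes of chromosome structure, 3 fell in PD03 against thrombin. Top2a (ENSRNOG00000053047), the topoisomerase that untangles sister chromatids, measured 226, 216 and 212 CPM in control, 261, 249 and 244 in Thrombin and 147, 165 and 161 in PD03. It fell by 0.67 (SE 0.04, adjusted p = 2.7e-17, edgeR), the smallest adjusted p of the 48. Mki67 (ENSRNOG00000028137), which encodes the proliferation antigen Ki-67 on the surface of mitotic chromosomes, measured 192, 193 and 183 CPM in control, 223, 222 and 218 in Thrombin and 129, 147 and 142 in PD03. The groups of Mki67 stood apart, with 0.22 for thrombin against control (adjusted p = 5.5e-05) and -0.66 for PD03 against thrombin (adjusted p = 7.2e-17).

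The condensins, which fold chromosomes for division, varied among themselves. Ncapg measured 44.4, 39.3 and 36.5 CPM in control, 44.7, 39.6 and 39.9 in Thrombin and 27.2, 25.5 and 23.5 in PD03. Control and Thrombin overlapped for Ncapg, and PD03 fell by 0.70 against thrombin and by 0.66 against control (adjusted p = 2.0e-10 and 1.9e-09, edgeR), a call lost against control without the first control library. Its partner Ncaph lay at -0.50 against thrombin, and the shared core subunits Smc2 and Smc4 at -0.48 and -0.40. Foxm1 had the largest estimate of the 48 in PD03 against thrombin (-0.84), but its standard error was 0.47 and its libraries overlapped, with 7, 19 and 15 counts in Thrombin and 7, 9 and 6 in PD03 (adjusted p = 0.14).

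**Figure D4:**
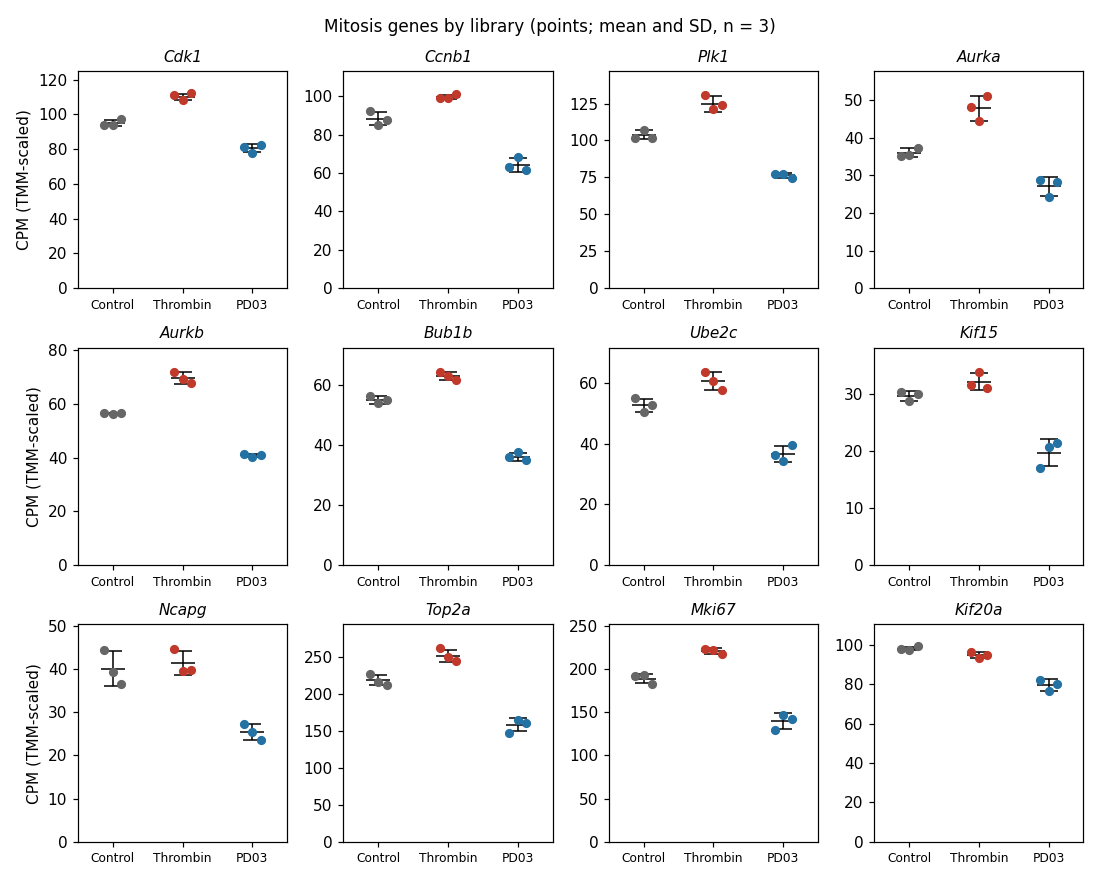
CPM (vertical axes from 0) of 12 mitosis genes in each library (points) with the mean and SD of each group (bars, n = 3). PD03 points lie under control and Thrombin points in each panel, while Thrombin lies above control without overlap for Cdk1, Ccnb1, Plk1, Aurka, Aurkb, Bub1b, Ube2c, Kif15, Top2a and Mki67 and not for Ncapg and Kif20a.

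Across the 48 genes the PD03 differences were close together, and the fold threshold divided near neighbours. In PD03 against thrombin 33 genes had a log2 fold change under -0.5, 12 of the 20 called genes lay within 0.1 of the threshold, and so did 16 genes that were not called. A test of whether the change exceeded the threshold itself (edgeR's glmTreat) called 5, which were Aurka, Aurkb, Bub1b, Plk1 and Ube2c. The fold change ran neither with gene length (Spearman 0.00 over the 48 genes) nor with level (0.10), values that describe genes sharing the same libraries.

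Median changes were also taken by promoter sequence over the 41 genes with a promoter, and were not tested against each other. Genes without an entry, among them the called genes Ccna2, Aurkb, Incenp and Ube2c, are not in these medians. Genes with the CHR had a median of -0.52 in PD03 against thrombin (31 genes) and those without it -0.54 (10 genes). With CCAAT the medians were -0.52 (29 genes) and -0.54 (12 genes), and with E2F sites -0.50 (10 genes) and -0.54 (31 genes). Single genes ran both ways. With none of these letters in the window, Aurka was at -0.82, Kif2c at -0.68, Melk at -0.55 and Bub1 at -0.52. With all of them, Mki67 was at -0.66, Kif23 at -0.62, Ect2 at -0.50, Cdk1 at -0.45, Smc4 at -0.40 and Ccnb2 at -0.33. Starts were taken as annotated and were not checked, so a sequence may be missed where a start is misplaced.

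**Figure D5:**
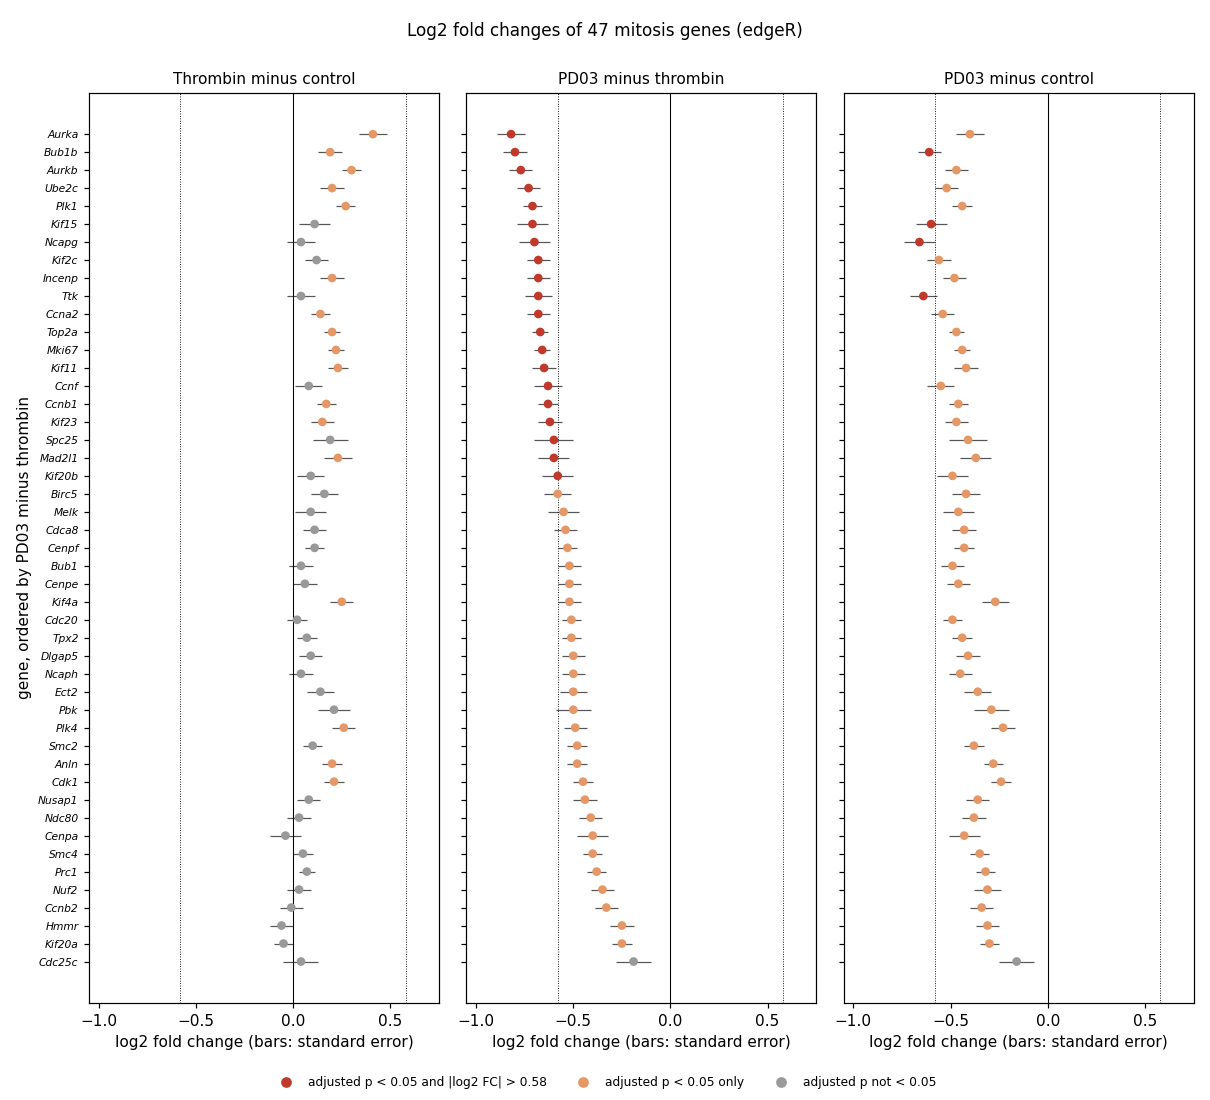
Log2 fold changes of 47 mitosis genes (horizontal axis, bars are standard errors) in the 3 comparisons, ordered by PD03 against thrombin, with dotted lines at the fold threshold of 0.58; Foxm1 is left out for its low counts. In PD03 against thrombin the values run from -0.82 for Aurka to -0.19 for Cdc25c, and in thrombin against control all lie inside the dotted lines.

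Further genes of mitosis, from a list of 129 of which 122 were tested, were set beside the 48. The shares over all tested genes are those given above for each comparison. In PD03 against thrombin 45 fell and none rose, with a median of -0.51. On the adjusted p alone 100 were lower and 5 higher, and 15 of 122 had a log2 fold change above 0, where none of the 48 had. Both lists were chosen with earlier results of these data known, and the difference between them was not tested. Those that fell most were Depdc1b (-0.95), Mis18a, which helps to load Cenpa (-0.86), and Cenpo, a kinetochore subunit (-0.83). In PD03 against control 13 fell, led by Ckap2 (-0.79), Psrc1 (-0.72) and Gtse1 (-0.68), the median was -0.36, and on the adjusted p alone 86 were lower and 8 higher. Thrombin against control called none by edgeR, with 38 higher and 1 lower on the adjusted p alone and a median of 0.12. Of 54 DNA replication genes 25 fell in PD03 against thrombin (median -0.56) and 7 in PD03 against control (median -0.40). On the adjusted p alone 30 of these 54 were higher with thrombin, with a median of 0.21, and edgeR called none.

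The factors that act on such promoters were measured as well, in a list of 15 genes of the MuvB, E2F and NF-Y groups. In PD03 against thrombin 3 of the 15 fell and none rose, where 6.31% of all tested genes fell and 9.61% rose. Mybl2, which turns MuvB into an activator, fell most (-0.79 ± 0.06, adjusted p = 5.5e-15, edgeR). The others were Lin9, a MuvB subunit (-0.66), and Rbl1, the pocket protein p107 (-0.63). Lin54, the MuvB subunit that contacts the CHR, was at -0.35 and Nfya at -0.28, whereas Nfyb was at 0.47, all past the adjusted p alone. In thrombin against control none of the 15 was called, and Mybl2 was at 0.29 (adjusted p = 7.8e-05).

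In a list of 15 genes that set the start of the cycle, 2 fell and 2 rose in PD03 against thrombin. Of all tested genes, 6.31% fell and 9.61% rose there. Ccnd1, the cyclin that growth factor signals induce, averaged 86.6 CPM in control, 94.3 in Thrombin and 42.1 in PD03 (-1.17 ± 0.06, adjusted p = 7.2e-21, edgeR), and Myc fell by 0.69. Cdkn1c, the inhibitor p57, averaged 58.3, 13.3 and 85.6 CPM. It fell by 2.13 with thrombin and rose by 2.69 in PD03 against thrombin (adjusted p = 1.1e-24 and 2.9e-29). Rb1 rose by 0.66. The inhibitors Cdkn1a and Cdkn1b differed little, at -0.13 and 0.21 in PD03 against thrombin.

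Of 14 genes known to follow MEK and ERK activity, 10 fell in PD03 against thrombin, where 6.31% of all tested genes fell. Egr1 averaged 339 CPM in control, 243 in Thrombin and 18.7 in PD03 (-3.70 ± 0.12, adjusted p = 1.7e-27, edgeR). Phlda1 (-2.70), Etv4 (-2.62) and Dusp6 (-2.40) fell as well, and Spry1 was higher on the adjusted p alone (0.42). In thrombin against control Dusp4 (0.94) and Phlda1 (0.98) rose, while Egr1 (-0.48) and Dusp6 (-0.40) were lower on the adjusted p alone.

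The count of a gene can take in reads of a neighbour or a near copy, or lose reads shared with one. Whether reads were counted by strand is not stated in the methods or labels. On the RefSeq annotation 20 of the 48 genes overlapped another gene, 13 of them a protein-coding one. Among these pairs were Aurka with Fam210b, Plk1 with Ern2, Kif11 with Ide, Ncapg with Lcorl and Kif20a with Cdc23. Foxm1, with its low counts, overlapped Tex52. Pseudogenes named after a member were listed for 11, with 4 for Ube2c and 3 for Aurka. The values of these genes are uncertain to that extent.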

How the data were processed

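Messenger RNA was sequenced in 9 libraries, 3 in each of the control, Thrombin and PD03 groups. Per the paper's methods, the authors used fastp for trimming, HISAT2 for alignment to Rnor_6.0, featureCounts for counting and DESeq2 for testing. The submitters' processing notes list mRatBN7.2 and HTSeq 0.13.5 instead, so the build and the counter are uncertain. Neither the annotation release nor the strandedness is stated there. The authors deposited raw counts and FPKM values per gene, the latter divided by gene length and library total. A row for each of 19085 genes was read, 2048 of them with no symbol.

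Raw counts were filtered with edgeR's filterByExpr (minimum count 10), which left 13256 genes, scaled by TMM and fitted with all 3 groups together by edgeR's quasi-likelihood test, with Benjamini-Hochberg adjustment across those genes. FPKM served for levels between genes and in an alternative test with limma. Versions were R 4.3.3, edgeR 4.0.16, limma 3.58.1, DESeq2 1.42.0, Python 3.11.15 and matplotlib 3.10.9. The fit was also run on simulated data with the same spread between libraries for every gene, and no result above rests on that run. The biological coefficient of variation was 4.28%. Libraries of the same group were distinct beyond sampling error (chi-square over its degrees of freedom 1.81 to 3.88), so none was treated as a duplicate.

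The 48 genes and all lists were chosen with earlier results of these data known. All 48 could be named, as could the 3 genes with the largest rise and fall among called, non-overlapping genes of the further mitosis list, and any gene of a list of at most 15. Alternatives covered scaling, Col1a1 left out, low-count filters, DESeq2, limma voom, fold thresholds, FPKM (pseudocount 1 or 0.1), a block for the replicate number, and omission of single libraries. Promoter sequences came from RefSeq (GRCr8). The study's protein, imaging and network data were not analysed here. The summed nerve and glia markers are not reported here.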

Additional observations from a re-analysis of the deposited data

How the results depend on the processing

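In thrombin against control 17 genes were called higher with no fold threshold, and 0 under the other alternatives. In PD03 against thrombin, where 20 were called lower, the count was 35 with library totals, 46 with no fold threshold, 0 at a fold threshold of 1, 5 with glmTreat and 34 from FPKM with 0.1 added (24 with 1 added). In PD03 against control, where 4 were called lower, these were 15, 46, 0, 0 and 14 (9 with 1 added). The median in PD03 against thrombin (-0.54) became -0.64 with library totals, -0.58 from FPKM with 1 added and -0.62 with 0.1 added, and in PD03 against control (-0.43) it became -0.55, -0.50 and -0.54. Leaving out each library in turn gave 18 to 22 genes and medians of -0.57 to -0.51 in PD03 against thrombin, and 3 to 5 genes and medians of -0.46 to -0.39 in PD03 against control. The 20 genes called in PD03 against thrombin were also called with DESeq2, limma voom, DESeq2 size factors, no filter and Col1a1 left out, and 19 of them at a mean count of 50, which lost Kif20b and left Foxm1 untested. Of values for single genes, 14 changed sign, all in thrombin against control with a library left out and none of them called. Their ranges were -0.06 to 0.03 for Ccnb2, -0.02 to 0.08 for Ttk, -0.02 to 0.04 for Cdc20, -0.10 to 0.03 for Cenpa, -0.01 to 0.07 for Ndc80, -0.02 to 0.13 for Ncapg, -0.01 to 0.07 for Ncaph and -0.14 to 0.42 for Foxm1. The replicate number as a block gave 21, 4 and 0 genes called in PD03 against thrombin, PD03 against control and thrombin against control, and libraries of equal number did not deviate together (correlations of -0.05 to 0.05), so the numbers were not treated as a pairing. The cause of these differences was not tested. Counts under 20 per library, as for Foxm1, limit what can be seen.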
